A study of Mus musculus with 8 samples.

Results

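The uterine lumen is filled and emptied by a small set of channels, exchangers and water pores, and the mRNAs of 10 of them were followed in the mouse uterus at GD3.5, the day before an embryo would attach. They were chosen by symbol from a table of 24963 genes: Cftr, Slc26a4 and Car12, the epithelial sodium channel (ENaC) subunit genes Scnn1a, Scnn1b and Scnn1g, and the aquaporin genes Aqp1, Aqp3, Aqp5 and Aqp8. Whole uteri came from 4 Nr2f2 f/f and 4 Nr2f2 d/d mice, all C57B6/J females mated with vasectomized males, so that no embryo was present. Both genotypes carry 2 floxed alleles of Nr2f2, which encodes the nuclear receptor COUP-TFII. Only Nr2f2 d/d mice also carry Cre, knocked into 1 Pgr allele, so that the deletion falls in cells that express the progesterone receptor and the altered Pgr allele cannot be told apart from the loss of Nr2f2. The labels give 8 weeks as the age at mating and the study's methods 2 to 3 months, and no group was treated. Each mouse gave 1 library of RNA, and the comparison asks whether loss of Nr2f2 goes with a change in the machinery that sets uterine fluid.

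Epithelia secrete fluid when CFTR, a cAMP-gated channel for chloride and bicarbonate, opens toward the lumen, and they absorb it when ENaC lets sodium in and water follows. In the uterus estrogen is known to favour secretion and progesterone absorption, and the lumen closes around the embryo before attachment as fluid is taken up. Aquaporins carry water across the cell membranes in either direction, in vessels and muscle as well as in epithelium.

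The values are FPKM, fragments scaled to gene length and to the library total, so levels can be compared between genes. The recovered totals were 61500000 to 92650000 fragments per library. Nr2f2 had 24.1 ± 1.80 FPKM in Nr2f2 f/f and 8.93 ± 1.36 FPKM in Nr2f2 d/d (SD, n = 4 each; log2 fold change -1.39, limma adjusted p = 0.00549). Nr2f2 f/f replicate 2 stood somewhat apart, with a mean correlation of 0.932 with the other libraries over the genes tested, against 0.946 to 0.968 for the rest, and members that rest on it are given with and without it.

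Of the 10 mRNAs, 7 averaged 0.5 FPKM or more and were tested with limma on log2(FPKM + 0.5), a scale that understates the change of low genes. None of the 7 had an adjusted p under 0.05, while 2.62% of the 14323 genes tested did. None met the study's threshold, an unadjusted p under 0.05 with a fold change of at least 1.4, against 8.8% of all genes, and none had an unadjusted p under 0.05, against 21.2%. The FPKM of the 2 genotypes overlapped for all 10, whereas they did not overlap for 15.4% of the genes tested. The log2 fold change was above 0 for 4 of the 7 and below 0 for 3, with a median of 0.04 against -0.02 over all genes tested. All 7 intervals of the log2 fold change reached past a 1.4-fold change in at least 1 direction, and those of Car12, Aqp1, Aqp5 and Aqp8 did so in both. In the directions reached, a change of that size was not detected, which does not show that it was absent. The intervals of Cftr (lower end -0.18) and Scnn1a (-0.42) did not reach a 1.4-fold fall, nor that of Scnn1b (upper end 0.37) a 1.4-fold rise. In bulk tissue, fewer cells of a type and less mRNA per cell cannot be told apart.

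**Figure D1:**
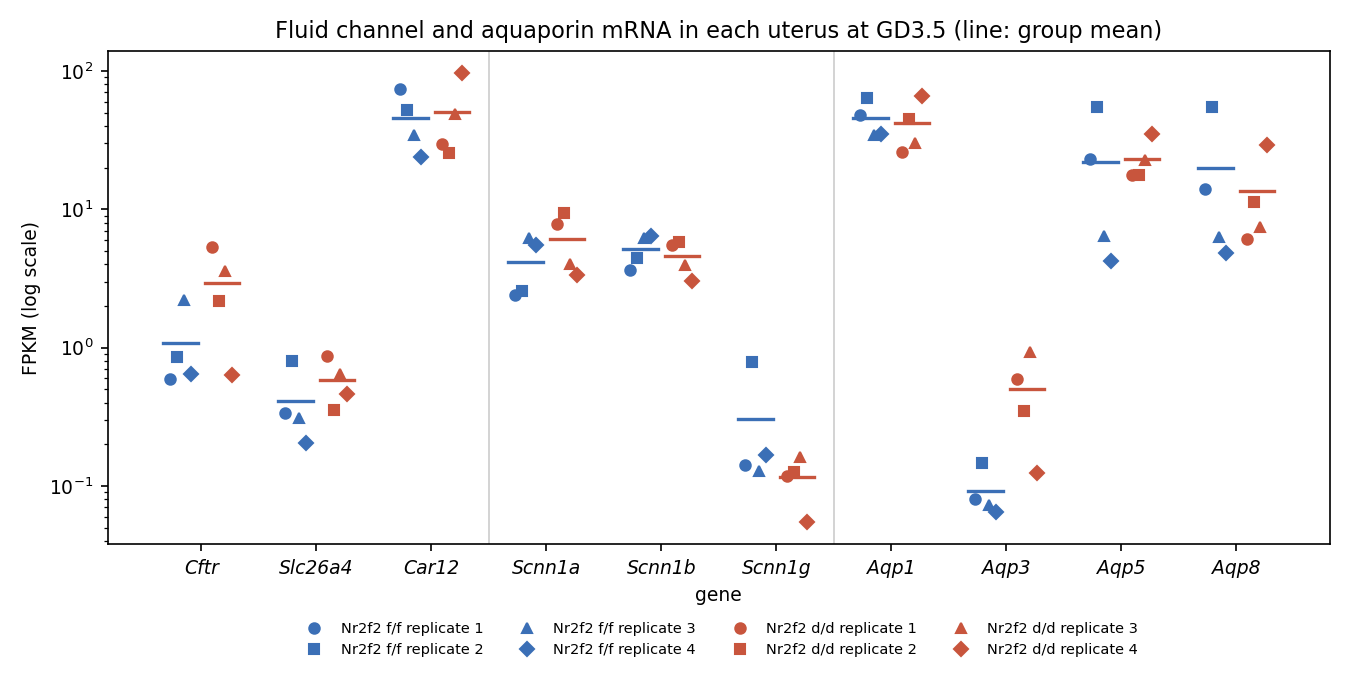
FPKM of the 10 mRNAs in each of the 8 uteri, on a log scale. Blue marks are Nr2f2 f/f and red marks Nr2f2 d/d, the shape gives the replicate and the line the mean of 4, and for every gene the blue and red marks overlap.

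**Figure D2:**
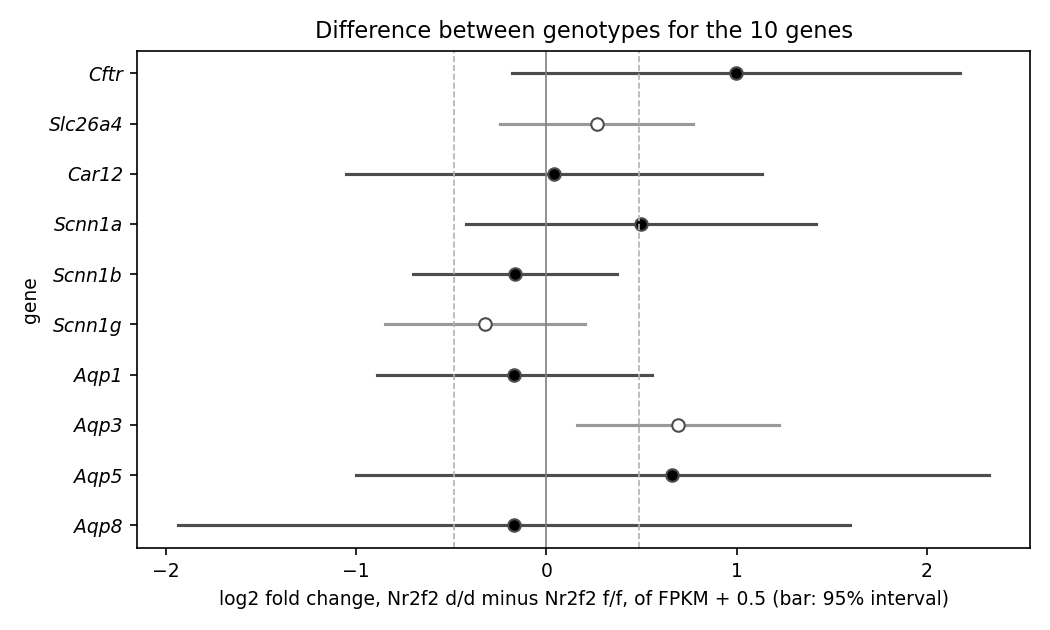
Log2 fold change of each mRNA, Nr2f2 d/d minus Nr2f2 f/f, with its 95% interval from limma. Filled points passed the filter on low values, open points come from the fit without that filter, the dashed lines mark a 1.4-fold change, and only the interval of Aqp3, an open point with an adjusted p of 0.174 from limma, lies to one side of 0.

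The 10 mRNAs spanned a wide range of levels. In Nr2f2 f/f, Car12 (46.0 FPKM), Aqp1 (45.4), Aqp5 (22.1) and Aqp8 (19.99) were the most abundant by their means. Scnn1b (5.17 FPKM), Scnn1a (4.18) and Cftr (1.08) came next, and Slc26a4 (0.414), Scnn1g (0.308) and Aqp3 (0.0915) were scarce. Only Scnn1a and Cftr, among neighbours in this order, had ranges that did not overlap, since the lowest Scnn1a library held 2.39 FPKM and the highest Cftr library 2.21. In Nr2f2 d/d the order of the first 4 was unchanged, Scnn1a stood above Scnn1b and Aqp3 above Scnn1g, and every pair of neighbours overlapped.

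On the secretory side, Cftr is found at 18170687 to 18322768 of chromosome 6 (mm10, plus strand). Nr2f2 f/f replicates 1 to 4 held 0.597, 0.860, 2.21 and 0.642 FPKM of Cftr, and Nr2f2 d/d replicates 1 to 4 held 5.35, 2.19, 3.60 and 0.637 FPKM. Replicates 1 and 3 of Nr2f2 d/d were above every Nr2f2 f/f uterus and replicate 4 was at the Nr2f2 f/f floor, while Nr2f2 f/f replicate 3 reached the middle of the Nr2f2 d/d values. The means were 1.08 ± 0.763 and 2.94 ± 2.01 FPKM (SD, n = 4 each), and the log2 fold change was 1.00 (standard error 0.512, 95% interval -0.18 to 2.17, limma adjusted p = 0.305). Cftr thus had the largest log2 fold change of the 7 tested, and it did not pass. With 1 library left out it ran from 0.66 without Nr2f2 d/d replicate 1 (unadjusted p = 0.220 from limma) to 1.45 without Nr2f2 d/d replicate 4 (unadjusted p = 0.00635, limma adjusted p = 0.0984). The only other of these 8 fits with an unadjusted p under 0.05 left out Nr2f2 f/f replicate 3 and gave 1.29 (unadjusted p = 0.0385, limma adjusted p = 0.229). On the opposite strand another annotated gene shares 1.7% of the exon bases of Cftr.

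Slc26a4 (chromosome 12, 31519827 to 31559969, minus strand) encodes pendrin, which exchanges chloride for bicarbonate across the apical membrane and so could work beside CFTR. Its mRNA was low, with 0.337, 0.806, 0.310 and 0.204 FPKM in Nr2f2 f/f and 0.871, 0.357, 0.65 and 0.461 FPKM in Nr2f2 d/d, or about 39 to 187 fragments per library. Only Nr2f2 d/d replicate 1 lay above all Nr2f2 f/f uteri, and Nr2f2 f/f replicate 2 was the second highest of the 8. The mean over the libraries was just under the minimum for the limma test, and the difference in mean log2(FPKM + 0.5) was 0.26 (exact permutation p = 0.257, two-sided), or 0.48 with 0.1 and 0.17 with 1 FPKM added. With 1 library left out the difference ran from 0.14 without Nr2f2 d/d replicate 1 (exact permutation p = 0.514) to 0.45 without Nr2f2 f/f replicate 2 (exact permutation p = 0.0571), and it was 0.15 without Nr2f2 f/f replicate 4. Without Nr2f2 f/f replicate 2 the genotypes did not overlap, and 0.0571 is the smallest p the test can give with 1 library left out.

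Car12 (chromosome 9, 66713686 to 66766845, plus strand) encodes a carbonic anhydrase anchored at the outside of the cell, where it interconverts carbon dioxide and bicarbonate. Its levels were 73.9, 51.9, 34.6 and 23.8 FPKM in Nr2f2 f/f and 29.5, 25.5, 48.9 and 96.3 FPKM in Nr2f2 d/d. The highest and the lowest uterus of the 8 therefore came from different genotypes, and each genotype spread over more than 3-fold. The means were 46.0 ± 21.9 and 50.0 ± 32.5 FPKM (SD, n = 4 each), with a log2 fold change of 0.04 (95% interval -1.05 to 1.13, limma adjusted p = 0.971).

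On the absorptive side, ENaC is assembled from an alpha, a beta and a gamma subunit, encoded by Scnn1a, Scnn1b and Scnn1g. Scnn1a sits at 125320659 to 125344943 of chromosome 6. Scnn1g (121734479 to 121768475) and Scnn1b (121865038 to 121918514) are neighbours on chromosome 7, both on the plus strand and 96.6 kb apart. Scnn1a had 2.39, 2.55, 6.25 and 5.54 FPKM in Nr2f2 f/f and 7.86, 9.38, 4.00 and 3.32 FPKM in Nr2f2 d/d. Within each genotype 2 uteri were high and 2 low, and the highest were replicates 1 and 2 of Nr2f2 d/d. The means were 4.18 ± 2.00 and 6.14 ± 2.94 FPKM (SD, n = 4 each), with a log2 fold change of 0.50 (95% interval -0.42 to 1.42, limma adjusted p = 0.508).

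Scnn1b, the beta subunit gene, had 3.61, 4.48, 6.17 and 6.41 FPKM in Nr2f2 f/f and 5.51, 5.79, 3.99 and 3.04 FPKM in Nr2f2 d/d. The same uteri that were high or low in Scnn1a were high or low here, within each genotype. The log2 fold change was -0.16 (standard error 0.233, 95% interval -0.70 to 0.37, limma adjusted p = 0.727), the narrowest interval of the 7. Scnn1g, the gamma subunit gene, was scarce at 0.143, 0.791, 0.128 and 0.168 FPKM in Nr2f2 f/f and 0.119, 0.126, 0.162 and 0.0550 FPKM in Nr2f2 d/d, or about 15 to 146 fragments. Nr2f2 f/f replicate 2 alone exceeded 0.168 FPKM, and 3 of 4 Nr2f2 d/d uteri were below every Nr2f2 f/f uterus. The difference in mean log2(FPKM + 0.5) was -0.32 (exact permutation p = 0.143, two-sided), or -0.68 with 0.1 and -0.20 with 1 FPKM added, and without Nr2f2 f/f replicate 2 it was -0.07.

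Because a channel needs its subunits together, their mRNA ratios were compared in each uterus. Ratios are given on the FPKM themselves, while their differences between genotypes were tested with 0.5 FPKM added to each gene before the log2, which shrinks those of scarce genes. The ratio of Scnn1b to Scnn1a in FPKM was 1.51, 1.76, 0.987 and 1.16 in Nr2f2 f/f and 0.701, 0.617, 0.997 and 0.915 in Nr2f2 d/d. All but Nr2f2 d/d replicate 3 lay below the Nr2f2 f/f uteri, and that library overlapped with Nr2f2 f/f replicate 3 by a narrow margin. The difference in mean log2 ratio was -0.66 (exact permutation p = 0.0571, two-sided; 0.228 adjusted over the 4 ratios computed) and -0.74 with no value added (exact permutation p = 0.0571), so the beta to alpha ratio did not pass the test. The ratio of Scnn1g to Scnn1a was 0.310 in Nr2f2 f/f replicate 2, 0.0205 to 0.0599 in the other Nr2f2 f/f uteri and 0.0134 to 0.0405 in Nr2f2 d/d (difference in mean log2 ratio -0.82, exact permutation p = 0.257), and Scnn1g to Scnn1b gave -0.16 (exact permutation p = 0.83). With no value added these differences were -1.601 (exact permutation p = 0.114) and -0.87 (exact permutation p = 0.314). Without Nr2f2 f/f replicate 2, and with 0.5 added, they were -0.40 (exact permutation p = 0.514) and 0.14 (exact permutation p = 0.457). The ratio of Cftr to Scnn1a, secretory to absorptive channel mRNA, was 0.250, 0.337, 0.353 and 0.116 in Nr2f2 f/f and 0.680, 0.233, 0.900 and 0.192 in Nr2f2 d/d. Again replicates 1 and 3 of Nr2f2 d/d were above all Nr2f2 f/f uteri and the others were not (difference in mean log2 ratio 0.50, exact permutation p = 0.343, and 0.75 with no value added, exact permutation p = 0.286).

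Promoters are shown for the ENaC neighbours, which differ in mean level by more than 10-fold in each genotype. That of Cftr, whose log2 fold change was the largest of the 7 tested, is shown too. Each is the 250 bases before the RefSeq start on GRCm38.p6, plus strand, and capitals mark a match on either strand to AGGTCA or GGGTCA, 6-base words that nuclear receptors of the COUP-TF kind can bind as repeats.
Scnn1g, chr7:121734229-121734478: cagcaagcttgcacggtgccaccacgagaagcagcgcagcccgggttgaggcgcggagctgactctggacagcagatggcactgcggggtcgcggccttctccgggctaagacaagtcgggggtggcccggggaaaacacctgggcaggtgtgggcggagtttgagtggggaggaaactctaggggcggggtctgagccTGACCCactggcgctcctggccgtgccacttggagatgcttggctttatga
Scnn1b, chr7:121864788-121865037: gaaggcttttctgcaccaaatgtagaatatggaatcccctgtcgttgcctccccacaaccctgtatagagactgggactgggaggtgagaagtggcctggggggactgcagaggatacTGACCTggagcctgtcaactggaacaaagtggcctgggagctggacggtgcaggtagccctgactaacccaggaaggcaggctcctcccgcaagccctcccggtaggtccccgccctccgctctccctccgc
Cftr, chr6:18170437-18170686: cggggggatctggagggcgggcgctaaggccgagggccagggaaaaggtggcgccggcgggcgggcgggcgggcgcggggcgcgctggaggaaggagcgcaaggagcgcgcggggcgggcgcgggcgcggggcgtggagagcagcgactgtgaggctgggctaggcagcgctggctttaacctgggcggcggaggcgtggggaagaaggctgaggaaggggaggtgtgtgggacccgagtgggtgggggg
Of the 9 members with a RefSeq promoter entry, Scnn1b held AGGTCA, read as TGACCT 132 bases before the start, and Scnn1g and Aqp5 held GGGTCA, 51 and 91 bases before it. AGGTCA stands in 14.0% and GGGTCA in 11.6% of 32851 promoters of the same length, so matches in 1 and 2 of 9 are close to that background. AGGTCA repeated after any 1 base was in none of the 9 (0.0335% of all promoters). Nor was GGTCA with TGACC 3 bases on, the palindrome of the estrogen receptor (0.0639%), or GNACA with TGTNC 3 bases on, that of the progesterone receptor (0.387%). Cftr held none of these words in a window of 76.4% G and C.

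The aquaporins divided by level into 3 abundant mRNAs and a scarce one. Aqp1 (chromosome 6, 55336432 to 55348555, plus strand) encodes the water pore of capillary endothelium and several epithelia. Its values were 47.8, 64.1, 34.7 and 34.97 FPKM in Nr2f2 f/f and 25.9, 45.1, 30.3 and 65.6 FPKM in Nr2f2 d/d. The highest uteri of the genotypes were nearly equal, and the means were 45.4 ± 13.9 and 41.7 ± 17.9 FPKM (SD, n = 4 each; log2 fold change -0.17, 95% interval -0.89 to 0.56, limma adjusted p = 0.799). Of 13 endothelial markers, 12 were lower in Nr2f2 d/d and 6 of these passed an adjusted p of 0.05, and their summed level was 447 to 609 FPKM in Nr2f2 f/f and 280 to 360 FPKM in Nr2f2 d/d. Pecam1 showed a log2 difference of -0.90 (limma adjusted p = 0.0192) and Cdh5 of -0.99 (limma adjusted p = 0.0149), while the Aqp1 groups overlapped, and the part of vessels in the Aqp1 level was not tested.

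Aqp5 (chromosome 15, 99590782 to 99594829, plus strand) encodes an apical water pore of glands. It had 23.2, 54.7, 6.42 and 4.26 FPKM in Nr2f2 f/f and 17.7, 17.6, 22.5 and 35.1 FPKM in Nr2f2 d/d. The Nr2f2 f/f uteri spanned 12.9-fold and held both the highest and the 2 lowest values of the 8. The means were 22.1 ± 23.3 and 23.2 ± 8.23 FPKM (SD, n = 4 each), with a log2 fold change of 0.66 (95% interval -1.0 to 2.33, limma adjusted p = 0.634). Each Nr2f2 f/f extreme moved it, to 1.31 without replicate 2 (unadjusted p = 0.0442, limma adjusted p = 0.232), 0.31 without replicate 3 (limma adjusted p = 0.853) and 0.13 without replicate 4 (limma adjusted p = 0.930).

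Aqp8 (chromosome 7, 123462291 to 123468004, plus strand) encodes a pore for water and small solutes. It followed the same uteri, with 14.0, 54.8, 6.34 and 4.84 FPKM in Nr2f2 f/f and 6.11, 11.2, 7.51 and 29.1 FPKM in Nr2f2 d/d. Nr2f2 f/f replicate 2 and Nr2f2 d/d replicate 4 were the highest, as they were for Aqp1 and Aqp5. The means were 19.99 ± 23.5 and 13.5 ± 10.6 FPKM (SD, n = 4 each), and the log2 fold change was -0.17 (95% interval -1.93 to 1.6, limma adjusted p = 0.922) with all libraries and 0.52 (limma adjusted p = 0.630) without Nr2f2 f/f replicate 2. The summed level of 8 gland markers was 639, 3305, 363 and 265 FPKM in Nr2f2 f/f and 228.5, 256.5, 65.3 and 246 FPKM in Nr2f2 d/d, and 1 of the 8, Spink1, passed as lower. In Nr2f2 f/f that sum was mostly Spink1 (mean 475 FPKM), Prss29 (423) and Prss28 (140), genes of secreted proteins. Foxa2, the defining gland factor, was at 5.15, 3.24, 7.74 and 6.96 FPKM in Nr2f2 f/f and 6.39, 5.71, 5.82 and 4.02 FPKM in Nr2f2 d/d. The library with the highest sum, Nr2f2 f/f replicate 2, was thus also the highest in Aqp5 and Aqp8 and the lowest in Foxa2. Nr2f2 d/d replicate 4, the next in Aqp5 and Aqp8, was not set apart by the sum and was the next lowest in Foxa2. Sox9, also 1 of the 8 gland markers, was among the genes most like Aqp5 over the 8 libraries (Pearson's r 0.96). The part of gland content was not tested.

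Aqp3 (chromosome 4, 41092722 to 41098183, minus strand) encodes a basolateral pore for water and glycerol. It was the scarcest mRNA in Nr2f2 f/f, at 0.0810, 0.147, 0.0730 and 0.0650 FPKM, or about 7 to 17 fragments per library. Nr2f2 d/d held 0.597, 0.350, 0.924 and 0.125 FPKM, about 21 to 157 fragments, so that 3 of 4 Nr2f2 d/d uteri were above every Nr2f2 f/f uterus and replicate 4 was not. The means were 0.0915 ± 0.0376 and 0.499 ± 0.343 FPKM (SD, n = 4 each), and the mean over all 8 was under the filter. The difference in mean log2(FPKM + 0.5) was 0.69 (exact permutation p = 0.0571, two-sided), and it was 1.46 with 0.1 FPKM added and 0.43 with 1 FPKM added, each with the same p. In the fit without the filter its unadjusted p was 0.0170 and its adjusted p 0.174 from limma.

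The spread between mice of one genotype was large for these genes. The SD of log2(FPKM + 0.5) within genotypes was 1.27 for Aqp8, 1.2 for Aqp5, 0.838 for Cftr and 0.783 for Car12, and 99.1%, 99.0%, 97.5% and 97.0% of all genes tested had a smaller one. Scnn1a (0.655), Aqp1 (0.514) and Scnn1b (0.373) were also above most genes, with 95.1%, 91.1% and 83.2% of genes below them.

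The uteri differed along shared lines. Across the 8 libraries, which share preparation and depth range, Pearson's r on log2(FPKM + 0.5) was 0.84 between Aqp5 and Aqp8, 0.90 between Aqp1 and Aqp8 and 0.76 between Scnn1a and Scnn1b. It was 0.82 between Cftr and Aqp3. Car12 ran against Scnn1b and Scnn1a, with r of -0.96 and -0.82, but not against Scnn1g (0.03). Deviations from the genotype means gave r of -0.98 for Car12 with Scnn1b, -0.91 for Car12 with Scnn1a and 0.96 for Scnn1a with Scnn1b. These relations were thus also seen within genotypes, where Car12 with Scnn1g gave 0.05. These correlations are descriptions over 8 points. In Nr2f2 d/d replicate 4, Car12 and Aqp1 were the highest of the 8 libraries, and Scnn1b and Scnn1g were the lowest.

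**Figure D3:**
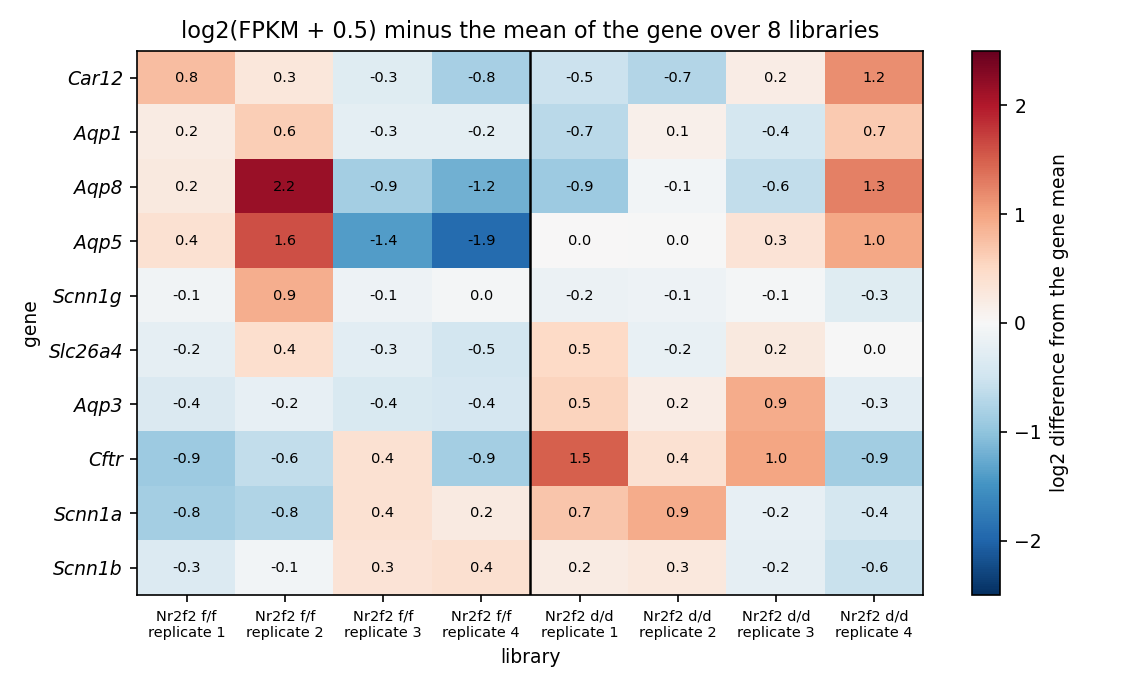
Difference of log2(FPKM + 0.5) from the mean of each gene over the 8 libraries, with genes in rows and libraries in columns and the genotypes parted by the black line. Aqp5 and Aqp8 are highest in Nr2f2 f/f replicate 2, and Car12 is high where Scnn1a and Scnn1b are low.

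The genes tested whose pattern was most like that of a member, by Pearson's r over the 8 libraries, were the following. For Cftr they were Clint1 (0.98), Ptprj (0.98) and Faah (0.97), and for Car12 they were Tspo (0.91), C4bp (0.91) and Ifitm6 (0.89). Scnn1a ran with Pde4dip (0.98), Mob3b (0.97) and Agtpbp1 (0.97), and Scnn1b with Gtpbp8 (0.92) and Rab22a (0.90). Aqp1 ran with Clcn6 (0.98), Trim68 (0.97) and Serpina3n (0.97). Aqp5 ran with Prdx5 (0.98), Tmem213 (0.96) and Sox9 (0.96), and Aqp8 with Fbxl12 (0.98), Napsa (0.97) and Inmt (0.96). No gene stood in the first 3 of more than 1 member. Ltf, the estrogen-induced gene of lactoferrin, was looked up after its values were seen. It had 11.9, 13.6, 407 and 13.9 FPKM in Nr2f2 f/f and 898, 314, 823 and 51.4 FPKM in Nr2f2 d/d, and its r was 0.94 with Cftr, 0.75 with Aqp3 and 0.66 with Scnn1a. The single Nr2f2 f/f uterus that was high in Ltf was also the one high in Cftr, and the Nr2f2 d/d uterus lowest in Ltf was the one lowest in Cftr.

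Markers of cell types were compared between the genotypes as well. Of 15 epithelial markers, 13 were higher in Nr2f2 d/d and 2, Krt8 and Elf3, passed an adjusted p of 0.05, and their summed level was 912 to 1042 FPKM in Nr2f2 f/f and 1212 to 1312 FPKM in Nr2f2 d/d. The defining markers Epcam (91.9 and 93.5 FPKM, limma adjusted p = 0.877) and Cdh1 (64.6 and 80.3 FPKM, limma adjusted p = 0.231) were abundant in both genotypes. Summed stromal markers ran from 1872 to 2172 FPKM in Nr2f2 f/f and from 2643 to 5019 FPKM in Nr2f2 d/d, but the list was split, with 5 of its 10 markers higher and 5 lower. By the study's threshold 5 were higher and 2 lower, the latter being Vim (log2 fold change -0.66, limma adjusted p = 0.113) and Thy1 (-0.56, 0.161). Only Col1a2 and Dcn passed an adjusted p of 0.05, both as higher. Smooth muscle markers (1306 to 1835 and 1046 to 2572 FPKM), leukocyte markers (120 to 180 and 145 to 279), oviduct markers (14.8 to 34.1 and 9.22 to 59.6) and adipocyte markers (1.87 to 14.7 and 2.64 to 8.11) overlapped. Mesothelial markers summed to 73.5 to 102 FPKM in Nr2f2 f/f and to 94.4 to 119 FPKM in Nr2f2 d/d, and 6 of 7 were higher. Of these Msln passed, at 9.78 and 17.1 FPKM (log2 fold change 0.80, limma adjusted p = 0.0398). Globin genes were listed at 0 in all libraries, and the erythroid sum was 1.3 to 3.90 and 1.16 to 2.5 FPKM. The part of cell makeup in the levels of the 10 mRNAs was not tested.

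The fluid pathway around the channels was followed in 114 other genes in 7 lists, of which 84 were tested. Among these, 4 passed an adjusted p of 0.05, 1 of them higher and the other 3 lower, where 2.62% of all genes tested did. The study's threshold was met by 16, 7 higher and 9 lower, where 8.8% of all genes met it. The log2 fold change was above 0 for 39 and below 0 for 45. Of 16 regulators of CFTR, 2 passed. Slc9a3r1 encodes NHERF1, the PDZ scaffold that tethers CFTR at the apical membrane. It had 17.3, 18.9, 21.3 and 20.7 FPKM in Nr2f2 f/f and 34.5, 33.4, 30.2 and 29.0 FPKM in Nr2f2 d/d, so every Nr2f2 d/d uterus was above every Nr2f2 f/f uterus (log2 fold change 0.69, standard error 0.0904, limma adjusted p = 0.0149). It was above 0.05 without Nr2f2 d/d replicate 1 (limma adjusted p = 0.0555) or replicate 2 (limma adjusted p = 0.0636). Adora2b, a receptor that raises cAMP in response to adenosine, fell from 1.55, 1.37, 1.29 and 1.45 FPKM to 0.492, 0.426, 0.380 and 0.466 FPKM. The genotypes lay far apart and each was tight (log2 fold change -1.02, standard error 0.0964, limma adjusted p = 0.00549), and Adora2b passed in all 8 fits that left out 1 library.

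Of 15 tested regulators of ENaC, Usp2 passed. It encodes a deubiquitinase known to keep ENaC at the cell surface, and it had 7.20, 6.28, 7.41 and 8.43 FPKM in Nr2f2 f/f and 5.06, 3.96, 3.95 and 4.68 FPKM in Nr2f2 d/d. The groups did not overlap (log2 fold change -0.67, standard error 0.114, limma adjusted p = 0.0273). With 1 library left out, limma's adjusted p ranged from 0.0267 to 0.0927, and it stayed under 0.05 only without Nr2f2 f/f replicate 2 or Nr2f2 d/d replicate 4. Hsd11b2, whose enzyme keeps glucocorticoids from the mineralocorticoid receptor, had 154 ± 60.1 FPKM in Nr2f2 f/f and 315 ± 116 FPKM in Nr2f2 d/d (SD, n = 4 each; limma adjusted p = 0.163) and met only the study's threshold. Wnk1, a kinase upstream of ENaC and chloride cotransport, showed a log2 fold change of -0.13 (limma adjusted p = 0.240).

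Of 16 tested genes of bicarbonate and proton transport, Slc4a4 passed. It encodes the sodium bicarbonate cotransporter NBCe1, which loads secretory cells with bicarbonate, and it had 6.17, 8.54, 6.36 and 7.12 FPKM in Nr2f2 f/f and 4.68, 4.34, 4.40 and 4.51 FPKM in Nr2f2 d/d. The Nr2f2 d/d uteri were within 1.08-fold of each other and all below Nr2f2 f/f (log2 fold change -0.59, standard error 0.104, limma adjusted p = 0.0309). Across the fits with 1 library left out, limma's adjusted p was 0.0283 to 0.101, under 0.05 only without Nr2f2 f/f replicate 2. Slc9a2, a sodium-proton exchanger, had 1.23, 3.02, 0.665 and 1.31 FPKM in Nr2f2 f/f and 0.0790, 0.345, 0.127 and 0.183 FPKM in Nr2f2 d/d (log2 fold change -1.48, limma adjusted p = 0.0502). Car4, a membrane carbonic anhydrase like Car12, had 0.962, 3.82, 0.730 and 1.58 FPKM in Nr2f2 f/f and 0.112, 0.194, 0.199 and 0.178 FPKM in Nr2f2 d/d (log2 fold change -1.58, limma adjusted p = 0.0578). Their groups did not overlap, and both were highest in Nr2f2 f/f replicate 2. Leaving that library out gave log2 fold changes of -1.18 and -1.21 that passed the adjusted threshold (limma adjusted p = 0.0382 and 0.0297), as did both with 0.1 FPKM added (0.0357 and 0.0326). Over the 8 fits with 1 library left out, limma's adjusted p reached up to 0.125 for Slc9a2 and 0.148 for Car4, and Slc9a2 also passed without Nr2f2 f/f replicate 3 (0.0429). Other carbonic anhydrases met the study's threshold as higher in Nr2f2 d/d, Car2 at 78.6 and 146 FPKM (log2 fold change 0.88, limma adjusted p = 0.178) and Car9 at 1.31 and 2.49 FPKM (0.69, 0.0861).

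In the other lists none passed an adjusted p of 0.05. Of 22 genes of chloride entry and other chloride channels, 16 were tested and 3 met the study's threshold. These were Slc12a2, the cotransporter NKCC1 that loads cells with chloride (39.8 and 23.0 FPKM, log2 fold change -0.68, limma adjusted p = 0.231), Slc26a11 (-0.49, 0.216) and Ano9 (0.59, 0.219). Slc12a7 had the smallest p of the list with a smaller fold (-0.23, 0.192). Among 12 sodium pump genes, Fxyd7 had a log2 fold change of -0.48 and Fxyd5 of -0.28, with adjusted p-values of 0.142 and 0.242 from limma. Of 7 potassium channel genes, Kcnn4 (log2 fold change 1.03, limma adjusted p = 0.170) and Kcnk5 (0.52, 0.190) met the study's threshold, and Kcnk1 (0.47, 0.142) did not reach its fold. Vipr1, the VIP receptor among the CFTR regulators, differed by -0.54 on the log2 scale (limma adjusted p = 0.0626). Of 8 other aquaporins, 2 were tested: Aqp4 differed by -0.97 on the log2 scale (limma adjusted p = 0.242) and Aqp11 by -0.55 (limma adjusted p = 0.567), and neither met a threshold. Nr2f2 f/f replicate 1 held 0.016 FPKM of Aqp4, against 1.1 to 1.72 in the other Nr2f2 f/f uteri. Without that library Aqp4 differed by -1.42 and met the study's threshold (unadjusted p = 0.000298 from limma), but not the adjusted one (limma adjusted p = 0.0541).

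**Figure D4:**
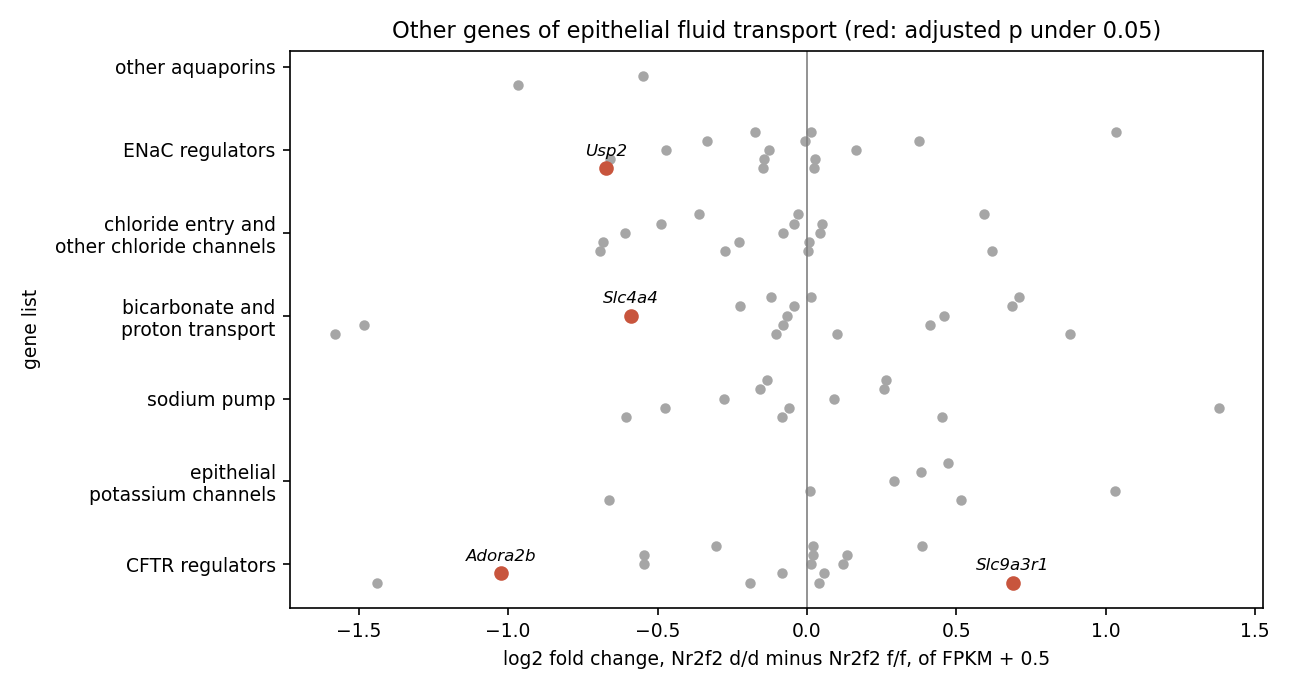
Log2 fold change, Nr2f2 d/d minus Nr2f2 f/f, of the 84 tested genes of epithelial fluid transport other than the 10, by list. Red points are the 4 genes with an adjusted p under 0.05, of which Slc9a3r1 is higher and Usp2, Slc4a4 and Adora2b are lower.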

How the data were processed

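Whole uterine RNA of 8 mice at GD3.5 (4 Nr2f2 f/f, 4 Nr2f2 d/d) was sequenced from TruSeq libraries as paired ends, 1 library per mouse. Per the labels and the study's methods, the authors trimmed reads with cutadapt 1.12, aligned them to mm10 with STAR 2.5.2b and counted fragments per gene with featureCounts 1.5.0-p1, and they deposited FPKM for 24963 genes, which are the values used here. Cufflinks 2.0.2 is also listed, without its role. The gene annotation, strand setting and FPKM formula are not given in the sources used here. The study tested counts with DESeq2, and those counts were not used.

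After 0.5 was added to each FPKM and the log2 taken, 14323 genes averaging 0.5 FPKM or more were tested together with limma 3.58.1 in R 4.3.3 (mean-variance trend, two-sided, Benjamini-Hochberg adjustment over all of them). Members under the filter and ratios were compared with exact permutation tests over 70 arrangements, which cannot give a p below 0.0286. With 1 library left out there are fewer arrangements, and the smallest p these tests can give is 0.0571. The model was tested on simulated data with known changes. Library totals were recovered as those at which 97.2% to 98.7% of short noncoding RNA values became whole fragments, to within the rounding of the file. Numbers of fragments rest on GENCODE vM21 exon lengths and cover counting error only.

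The members and the lists of pathway and marker genes, written from general knowledge, were chosen with earlier results of these data known. Named genes are the 10 members, Nr2f2, the 3 smallest p-values and any adjusted p under 0.05 in each pathway list, 8 defining markers, and the 3 most similar patterns per tested member. Of the genes this rule names, 2 are not reported here. Krt8, Elf3, Spink1, Prss28, Prss29, Col1a2, Dcn, Vim, Thy1, Slc12a2, Car2, Car9 and Ltf are named outside this rule, after their values were seen. Promoters came from RefSeq, GRCm38.p6, where 9 of 10 members matched and Scnn1a did not. The alternatives were other added values, filters and scalings, eBayes without trend or robust, a block for the replicate number, and each library left out in turn. Replicate numbers follow the titles, which differ from the numbers in the descriptions.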

Additional observations from a re-analysis of the deposited data

Results flagged for a closer look

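In each group of 4 libraries the highest or lowest value was compared with its nearest neighbour by Dixon's ratio at the 95% level, which chance passes in about 1 in 20 groups. Of 106 groups looked at, 8 passed, 2 of them among the 20 groups of the 10 fluid genes. Cftr in Nr2f2 f/f replicate 3 had 2.21 FPKM, against 0.597, 0.860 and 0.642 in the other Nr2f2 f/f uteri. Scnn1g in Nr2f2 f/f replicate 2 had 0.791 FPKM, against 0.143, 0.128 and 0.168. Vipr1, a receptor of the CFTR regulator list, had 0.865 FPKM in Nr2f2 f/f replicate 2, against 0.720, 0.735 and 0.740. Nr2f2 in Nr2f2 d/d replicate 3 had 6.90 FPKM, against 9.66, 9.42 and 9.74. Summed gland markers had 3305 FPKM in Nr2f2 f/f replicate 2 and 65.3 FPKM in Nr2f2 d/d replicate 3, both apart from their groups. Summed adipocyte markers had 14.7 FPKM in Nr2f2 f/f replicate 3 and 8.11 FPKM in Nr2f2 d/d replicate 3, also apart from their groups.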

How the results depend on the processing

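In each of the 18 alternatives, 0 members reached an adjusted p under 0.05 in limma. The number of members past the study's threshold was 0 as reported, 1 (Aqp3) without the filter on low values, and 0 to 1 with each library left out, namely Aqp5 without Nr2f2 f/f replicate 2 and Cftr without Nr2f2 f/f replicate 3 or Nr2f2 d/d replicate 4. Some values changed sign. Car12 was -0.0304 with quantile normalization and -0.34 to 0.31 with each library left out, Aqp1 -0.41 to 0.0281, Aqp8 -0.62 to 0.52, and the log2 ratio of Scnn1g to Scnn1b -0.35 to 0.14. That ratio differed by -0.16 as reported and by -0.87 to -0.0533 with other values, or none, added before the log2. Other pathway genes past the adjusted threshold were 4 as reported and 1 to 8 with a library left out, and those past the study's threshold 16 and 10 to 20. Usp2 kept its call only without Nr2f2 f/f replicate 2 or Nr2f2 d/d replicate 4, Slc4a4 only without Nr2f2 f/f replicate 2, and Slc9a3r1 lost it without Nr2f2 d/d replicate 1 (limma adjusted p = 0.0555) or 2 (0.0636).

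Same-numbered uteri did not deviate together (r of -0.20 to 0.05 by title number and -0.20 to 0.15 by description number). These few correlations gave no sign of pairing, but they cannot exclude it. With the number as a replicate block, 0 other pathway genes passed the adjusted threshold by either numbering, where 1 and 0 of all 14323 genes did, against 375 without a block, and with the block of description numbers Aqp1 was 0.13 and Aqp8 0.70. By description number, Nr2f2 f/f replicate 2 and Nr2f2 d/d replicate 3 carry a number that the other genotype lacks. With that block these 2 libraries therefore did not bear on the genotype difference. The cause of the loss of passing genes was not tested. The members under 0.5 FPKM rest on few fragments, and whole tissue cannot place any mRNA in a cell type.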
